A study of Drosophila melanogaster with 4 samples.

Results

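The broad autosomal binding regions of lov are the peaks on the autosome arms 2L, 2R, 3L, 3R and 4 that are 1000 bp wide or more, and 234 of the 4164 deposited peaks were chosen by this measured width. They were 6.67% of the 3506 autosomal peaks, and the remaining 3272 autosomal peaks serve as the comparison. The list came from chromatin immunoprecipitation followed by sequencing (ChIP-seq) on whole Drosophila melanogaster embryos, with 2 ChIP libraries and 2 input DNA libraries. The ChIP libraries used a custom rabbit polyclonal antibody raised against part of CG16778, the protein-coding gene now listed as lov. Embryos of unknown sex came from the stock Y cn bw sp, labelled as 0 to 8 h old, although the labelled protocol describes an egg laying of 8 to 16 h. All 4 libraries share this background, which carries y[1] with oc[R3.2]; on another chromosome Gr22b[1], Gr22d[1] and cn[1] beside CG33964[R4.2], bw[1] as well as sp[1]; and finally LysC[1], lab[R4.2], MstProx[1] plus GstD5[1] and Rh6[1]. The stock is not described as lacking lov, so antibody signal without the protein was not analysed here. Whole embryos mix many cell types, and a peak list holds no expression values, so stage and tissue were not checked against marker genes.

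The lov protein belongs to the BTB/POZ family, whose shared domain lets proteins pair with each other and whose fly members include many DNA-binding regulators of development. In Drosophila, lov is also known as jim lovell, a name that comes from the altered response to gravity of adult mutants. In ChIP-seq, the width of a called region depends on how long the sheared fragments are, on how far enrichment rises over the control and on how the caller joins neighbouring stretches. A broad region can therefore be a single site with wide shoulders or several sites whose signals run together, and a list of starts and ends does not separate the 2 cases.

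The deposited list has 1 row per peak for the whole series, so no value below carries a replicate error, and read depth is unknown. Each peak has a start, an end and 1 score by the authors' caller, read here as a −log10 p-value. The width chose the broad regions, and the score comes from the same pileup, so both are given as descriptions with no test. Peaks are not replicates, so differences are given with 95% intervals that cover counting error only and treat neighbouring peaks as independent. The genes around the regions are not analysed here, because the list uses release 5 of the fly genome and the gene table used here is of release 6.

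Broad regions were few, and by the rule on width they held a larger share of the autosomal peak length than of the peak number. They summed to 312.9 kb of the 1633.4 kb of autosomal peak length, which is 19.2%. The narrowest measured 1002 bp and the widest 3679 bp, around a median width of 1217.5 bp and quartiles of 1087.8 and 1425.8 bp. Of the 234 regions, 112 (47.9%) were under 1200 bp and 122 were at least 1200 bp. There were 44 of at least 1500 bp, 16 of at least 2000 bp and 3 of at least 3000 bp. The limit itself cuts through a continuous distribution. The peaks just inside it lay on 2R at 2872195 to 2873196 (1002 bp, score 31.79), on 2R at 5600270 to 5601272 (1003 bp, score 26.64) and on 3R at 16419007 to 16420009 (1003 bp, score 23.88). Just outside it lay peaks on 2R at 19866484 to 19867482 (score 27.98) and on 3R at 10540565 to 10541563 (score 20.44), both 1 bp short of the limit, and on 2L at 452675 to 453670 (996 bp, score 13.75). The scores on the 2 sides of the limit overlapped.

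The scores of broad regions ran from 11.62 to 289.64, with a median of 24.36 (95% interval of the median 22.95 to 26.61) and quartiles of 19.07 and 33.82. The other autosomal peaks ran from 6.38 to 156.72, with a median of 11.89 (11.70 to 12.09) and quartiles of 9.73 and 15.33. The medians thus stood 12.47 apart, and the upper quartile of the others lay under the lower quartile of the broad regions. The full ranges overlapped from 11.62 to 156.72, although the second highest of the others scored 81.09. The gap between the sets follows width as a gradient more than a step. The median score was 20.32 among the 163 peaks from 800 bp up to the limit and 21.31 among the 112 broad regions under 1200 bp. It was 24.75 from 1200 to under 1500 bp, 28.21 from 1500 to under 2000 bp and 37.63 at 2000 bp or more. Across the 234 broad regions the Spearman correlation of width and score was 0.298, against 0.606 across the 3272 others, both given as descriptions over peaks that share 1 pileup.

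**Figure D1:**
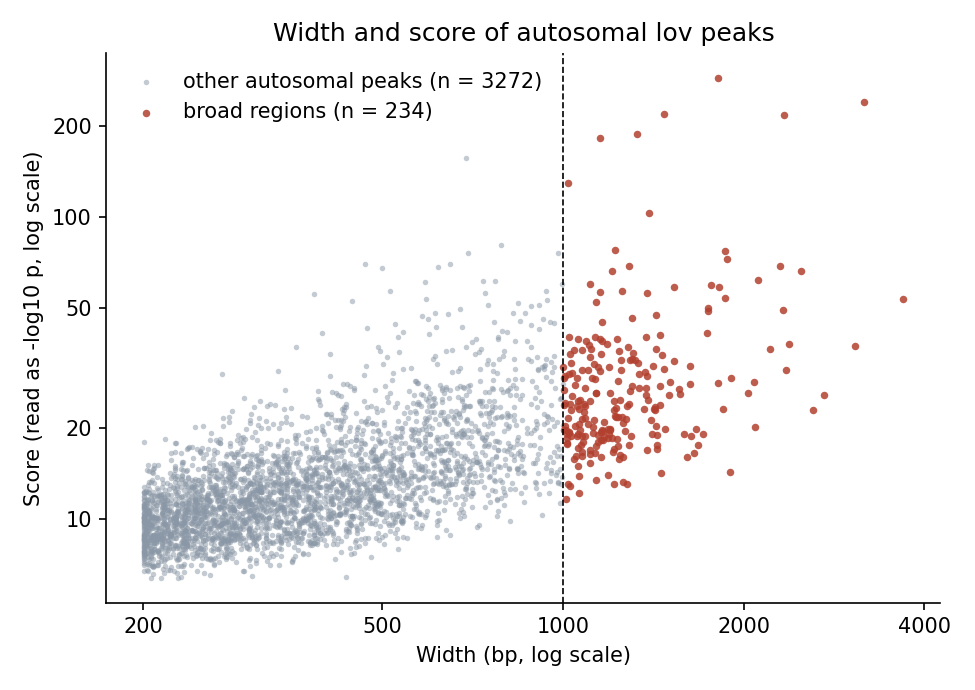
Score (read as −log10 p, log axis) against width (bp, log axis) for 3272 other autosomal peaks in grey and 234 broad regions in red, with the 1000-bp limit dashed. Scores rise with width on both sides of the limit, and the broad regions spread from 11.62 to 289.64.

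The very top of the score scale was mostly broad, which is tied to the rule because score rises with width. Of the 50 autosomal peaks with a score above 50, which are 1.43% of all autosomal peaks, 27 were broad. Of the top 35, or 0.998%, 21 were broad, and 8 of the top 10 were. Lower down the broad regions were a minority, with 46 of the top 100 (2.85% of autosomal peaks) and 81 of the 186 above 30 (5.31%). Above a score of 100 there were 9 autosomal peaks, of which 8 were broad. The exception, 690 bp wide, scored 156.72 on 2L at 1556662 to 1557351. The next other autosomal peak, on 2L at 4891966 to 4892753 (788 bp), scored 81.09. Low scores were less frequent among broad regions than among all autosomal peaks. Under 20 scored 78 of the 234 broad regions against 84.7% of all autosomal peaks, and under 16 scored 16 against 73.1%.

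The top score, 289.64, was that of a region of 1816 bp on 3R at 21856120 to 21857935 and was 11.9 times the median broad score. It ranked only 24th in width among autosomal peaks. The second, on 3L at 5967798 to 5970974, combined both properties, with 3177 bp and a score of 241.38. On 2L at 8415798 to 8417272, a region of 1475 bp scored 220.15. On 3L at 7904055 to 7906389, a region of 2335 bp scored 218.91, and its nearest other broad region was 753965 bp away. These 4 stand above all other autosomal peaks in score.

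The next 3 broad regions by score were narrower than these. The region on 2L at 3152452 to 3153781 measured 1330 bp and scored 189.50. That on 2R at 8915393 to 8916544 was 1152 bp wide and scored 183.53, and that on 3L at 10764628 to 10765649 was 1022 bp wide and scored 129.94. The 10 highest end with 3 regions of lower score. They lay on 2R at 9076367 to 9077756 (1390 bp, 103.57), on 3R at 21861042 to 21862261 (1220 bp, 78.04) and on 2R at 10061066 to 10062930 (1865 bp, 77.25).

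Ranking by width gave another order. The widest region lay on 2R at 18573744 to 18577422, measured 3679 bp and scored 53.74, which ranked 41st among autosomal peaks. The third widest, on 2L at 5977842 to 5980909, measured 3068 bp and scored 37.40. The fourth, on 2L at 19158498 to 19161216 (2719 bp), scored 25.66, and the fifth, on 2L at 248130 to 250740 (2611 bp), scored 22.93, the first near and the second under the median broad score. The region on 2R at 11776619 to 11779107 (2489 bp) scored 66.33, and that on 2L at 220365 to 222743 (2379 bp) scored 37.86. The eighth widest, on 3R at 7603054 to 7605404 (2351 bp), scored 31.04, and the tenth, on 2R at 11015418 to 11017746 (2329 bp), scored 49.38. The second and ninth widest are the 3L regions described above. Among the 10 widest, then, scores ran from 22.93 to 241.38 and only those 2 exceeded 100.

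Some broad regions were weakly scored. The lowest score, 11.62, belonged to a region of 1011 bp on 3R at 21830653 to 21831663, which lies 24456 bp from the nearest other broad region and in the same group of peaks as the highest-scoring one. It was followed by 3R at 6423729 to 6424792 (1064 bp, 12.15), 3L at 347479 to 348507 (1029 bp, 12.89), 3L at 5973139 to 5974418 (1280 bp, 13.04) and 3R at 19104937 to 19105955 (1019 bp, 13.05). The fourth of these lies 2164 bp from the 3L region that scored 241.38. The second, the third and the fifth had no other peak within 10 kb.

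Neighbours were counted by the gap between facing edges, so a region's own width is not part of the gap. Width can still be tied to gaps through how the caller joins neighbouring stretches, which was not tested. The smallest gap between autosomal peaks was 44 bp. Of the 234 broad regions, 179 (76.5%, exact 95% interval 70.5 to 81.8%) had another peak within 10 kb, against 82.1% of all autosomal peaks. Among the other autosomal peaks the share was 82.5% (81.1 to 83.7%), so the difference, broad minus others, was −5.96 percentage points (interval −11.9 to −0.806). With distances taken between centres it was −7.36 points. Without 2L the difference was −4.46 points (−11.1 to 1.09) and without 3R −3.44 (−10.5 to 2.35), so that both intervals then take in 0. The intervals also took in 0 among peaks above the median score (−4.46 points, −11.3 to 2.13), after peaks within 500 bp were joined (−2.36, −6.80 to 1.88), and at distances of 2 kb (−10.3 to 2.67) and 20 kb (−8.97 to 0.197). Against the 363 other peaks whose scores lay within the quartiles of the broad regions, of which 79.1% had such a neighbour, it was −2.57 points (−9.57 to 4.13). The interval stayed under 0 at a distance of 5 kb (−7.39 points, −13.8 to −1.43) and without 2R (−9.24, −16.5 to −2.95). It also did so without 3L (−6.48, −13.3 to −0.650) and without chromosome 4 (−6.12, −12.1 to −0.943). The difference changed with distance. Within 500 bp, 43.2% of broad regions and 39.8% of the others had another peak, within 1000 bp 52.1% and 53.4%, within 5 kb 66.2% and 73.6%, and within 50 kb 95.7% and 97.1%. The median gap was 810 bp for broad regions (208.5 and 9242.5 bp at the quartiles) and 835.5 bp for the others (218 and 5683 bp). The typical distance was thus alike, and the sets parted in the upper quartile, where broad regions lay farther from their neighbours.

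The share with a neighbour was lowest between the limit and 1500 bp and highest in the widest regions, in width classes that were chosen after their values were seen. Among the 112 broad regions under 1200 bp, 82 (73.2%, interval 64.0 to 81.1%) had another peak within 10 kb, against 137 of 163 (84.0%, 77.5 to 89.3%) among peaks from 800 bp up to the limit. This difference was −10.8 points (−20.9 to −1.11). From 1200 to under 1500 bp, 56 of 78 (71.8%) had such a neighbour, and from 1500 to under 2000 bp, 25 of 28 (89.3%). All 16 regions of 2000 bp or more had one (interval 79.4 to 100%), at a median gap of 150.5 bp. Regions of 1500 bp or more (41 of 44, 93.2%) thus exceeded the narrower broad regions (138 of 190, 72.6%) by 20.6 points (7.73 to 28.6). Set against all 3272 other peaks they stood 10.7 points higher (−0.752 to 15.4). Within the broad set, the low share was that of the regions under 1500 bp.

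**Figure D2:**
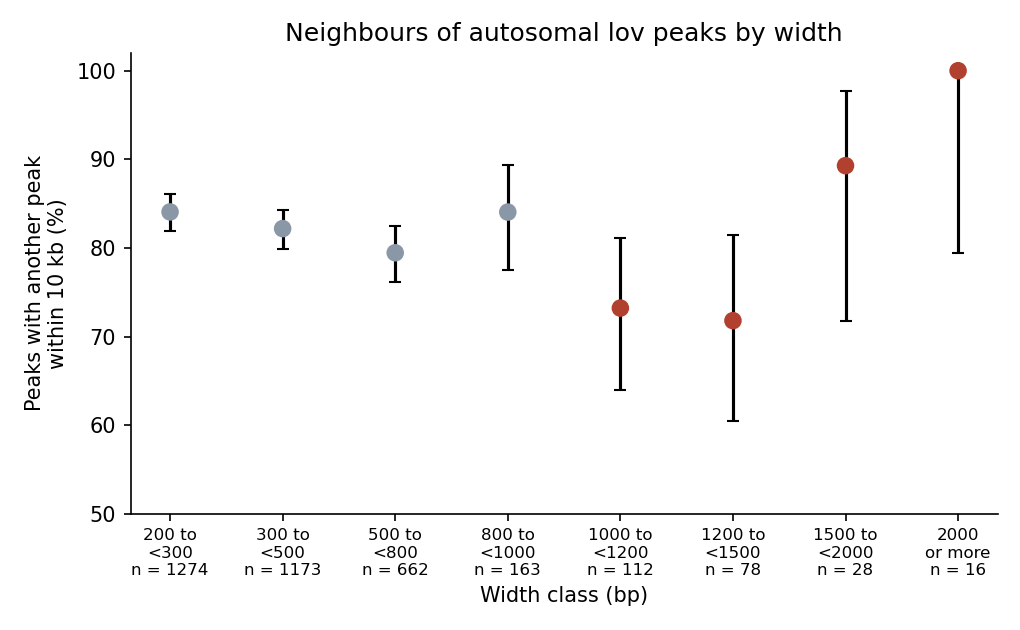
Share of autosomal peaks with another peak within 10 kb (%, vertical axis from 50) by width class (bp), with exact 95% intervals, in red for the classes of 1000 bp or more. The share drops from 84.0% in the class that ends at the limit to 73.2% in the class that begins there and reaches 100% in the 16 regions of 2000 bp or more.

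The number of neighbours varied widely. Of the broad regions, 55 had no other peak within 10 kb, 36 had 1, 49 had 2, 35 had 3 and 59 had 4 or more, with a mean of 2.51 ± 2.46 (SD over 234 regions) against 2.76 ± 2.67 over the 3272 others. The most, 13, were around a region on 3L at 10849472 to 10850629, which was 1158 bp wide and scored 16.02, and the highest of its neighbours scored 20.35. The top region on 3R had 12 neighbours, the highest at 78.04, and the weakly scored region on 3R at 21830653 also had 12, the highest at 19.27. A region on 3L at 16038778 to 16039994 (1217 bp, score 24.66) had 10, the highest at 33.94. The second highest region, on 3L at 5967798, had 9, none above 16.55. Crowded surroundings were found at both ends of the score range.

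**Figure D3:**
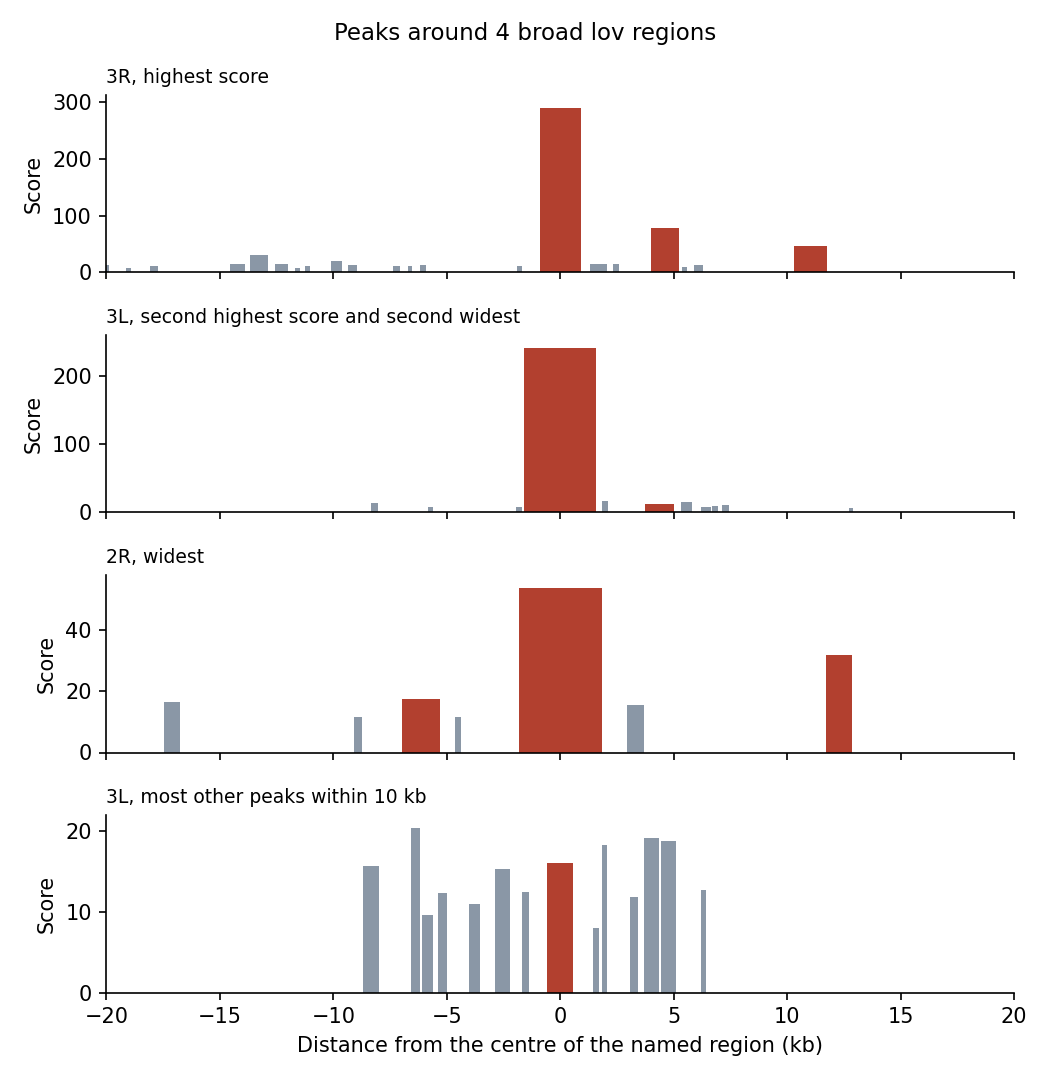
Peaks within 20 kb of the centre of 4 broad regions, drawn to scale as bars from start to end (distance in kb) with the score as height, broad regions in red and other autosomal peaks in grey. Around the 3R and 3L regions with scores of 289.64 and 241.38 the other peaks are far lower, whereas around the 3L region that scored 16.02 the 13 neighbours reach 20.35.

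Of the broad regions, 10 or 4.27% (interval 2.07 to 7.72%), had no other peak within 50 kb, against 3.02% of all autosomal peaks. The interval of the difference from the others, −0.698 to 4.79 points, takes in 0. The highest score among these isolated regions was 36.53, at 3R 16774659 to 16775772 (1114 bp). It was followed by 3L at 5647883 to 5649191 (1309 bp, 35.43), 2L at 3301821 to 3303122 (1302 bp, 33.86), 2L at 1884465 to 1886094 (1630 bp, 32.03) and 2L at 17951958 to 17953012 (1055 bp, 29.22). The last had its nearest peak 184780 bp away. Isolated broad regions were therefore neither the weakest nor the strongest, with scores from 17.51 to 36.53.

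Another broad region lay within 10 kb of 27 of the 234 (11.5%, interval 7.74 to 16.3%), against 15.1% of the other autosomal peaks, and the interval of this difference, −7.30 to 1.29 points, takes in 0. Within 50 kb it was 92 (39.3%, 33.0 to 45.9%) against 34.9% (difference −1.81 to 11.03 points). Within 100 kb it was 124 (53.0%, 46.4 to 59.5%) against 46.2%, a difference of 6.81 points (0.195 to 13.3). Of all autosomal peaks, 35.2% had a broad region other than themselves within 50 kb. The median gap from a broad region to the nearest other one was 83135 bp, and from another autosomal peak to the nearest broad region 123429 bp. Of the 27 broad regions with a score above 50, 16 (59.3%, 38.8 to 77.6%) had another broad region within 50 kb, against 76 of 207 (36.7%, 30.1 to 43.7%) at scores up to 50. The difference was 22.5 points (2.82 to 39.9), for a score limit that was chosen after the values were seen. Some of the 16 are each other's neighbours, such as the 3R regions that scored 289.64 and 78.04. The interval treats them as independent. Among the 23 other autosomal peaks above 50 the share was 34.8% (16.4 to 57.3%), and the difference of the broad regions from these, 24.5 points, has an interval of −3.03 to 47.2 that takes in 0.

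The closest pair lay on 2L, where the region of 2379 bp at 220365 to 222743 (37.86) was 100 bp from one of 1437 bp at 222844 to 224280 (19.02). The second lay on 2R, where 135 bp separated the region at 11015418 to 11017746 (2329 bp, 49.38) from that at 11017882 to 11019964 (2083 bp, 28.42). The third lay on 2L, where 644 bp separated 2749291 to 2750366 (1076 bp, 36.24) from 2751011 to 2752577 (1567 bp, 25.95).

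Joining autosomal peaks with gaps of up to 5 kb gave 1741 groups, and 218 of them held a broad region. Of the broad regions, 79 (33.8%) stood alone, 40 were in pairs and 115 in groups of 3 or more, whereas 26.4% of the other peaks stood alone. Among the 155 broad regions with company, 108 (69.7%, interval 61.8 to 76.8%) had the highest score of their group, against 28.7% (26.9 to 30.6%) of the 2409 other peaks in such groups. Counted over all autosomal peaks, 22.8% led a group of 2 or more. This share is tied to the rule, because score rises with width. Only 13 groups held 2 or more broad regions, with 29 broad regions between them. The group with the most ran on 3R from 21822268 to 21868760, with 4 broad regions among 31 peaks in 46.5 kb. Its 4 broad members scored 11.62, 289.64, 78.04 and 47.30 in the order of their coordinates, and the highest score among its narrower peaks was 30.50. One group held 3, on 2L from 2748345 to 2759569, with 9 peaks in 11.2 kb and no score above 36.24. Of the 14 groups of 10 or more peaks, 6 (42.9%) held a broad region, against 12.5% of all groups, and larger groups hold more peaks that could be broad.

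Broad regions occurred on all arms. They made up 6.18% of the peaks on 2L (47 of 760, interval 4.58 to 8.14%), 7.62% on 2R (65 of 853, 5.93 to 9.61%), 5.73% on 3L (49 of 855, 4.27 to 7.51%) and 7.11% on 3R (72 of 1013, 5.60 to 8.87%). On chromosome 4 there was 1 among 25 (4.00%, 0.101 to 20.4%), at 522440 to 523463, with 1024 bp and a score of 19.43. The largest departure of a long arm from the remaining arms was 1.25 points on 2R (−0.631 to 3.41), so no arm's share was separated from the others beyond counting error.

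Along the 4 long arms, broad regions lay somewhat closer to the telomere. Position was scaled from 0 at the peak nearest the telomere to 1 at the peak nearest the centromere. The median was 0.413 for 233 broad regions (95% interval 0.360 to 0.469) and 0.494 for 3248 other peaks (0.474 to 0.515). In the distal 50% of the arms lay 59.2% of the broad regions (52.6 to 65.6%), against 51.4% of all long-arm peaks and 50.8% of the others, a difference of 8.40 points (1.76 to 14.7). Much of it was on 2L. There, 36 of 418 distal peaks were broad (8.61%) against 11 of 342 proximal ones (3.22%), a difference of 5.40 points (2.02 to 8.78). Of the proximal peaks on 2L, 80 lay in the bin from 21000001 to 22000000, which has the most peaks of any 1-Mb bin and no broad region. Without it the proximal share was 4.198%, the difference 4.41 points (0.488 to 8.00), and the median of the others on 2L 0.373. The difference over all 4 arms in the distal 50% was then 7.11 points (0.472 to 13.5). On 2R the shares were 9.0% and 6.33% (difference −0.922 to 6.36), on 3L 5.76% and 5.70% (−3.24 to 3.19), and on 3R 7.74% and 6.51% (−1.97 to 4.48). Without 2L the difference between broad regions and others in the distal 50% was 4.78 points (−2.66 to 12.0). The medians by arm were 0.264 against 0.437 on 2L, 0.443 against 0.525 on 2R, 0.469 against 0.470 on 3L, and 0.453 against 0.518 on 3R. No long arm had the broad median on the centromere side of the others. The interval of the broad median lay wholly under the median of the others on 2L (0.144 to 0.415) and, by a narrow margin, on 2R (0.337 to 0.5245, against 0.5254). On 2L this rested on the bin with the most peaks, since without it the median of the others, 0.373, lies inside that interval. On both arms the intervals of the 2 medians overlap, since those of the others ran from 0.398 to 0.502 on 2L and from 0.487 to 0.541 on 2R.

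**Figure D4:**
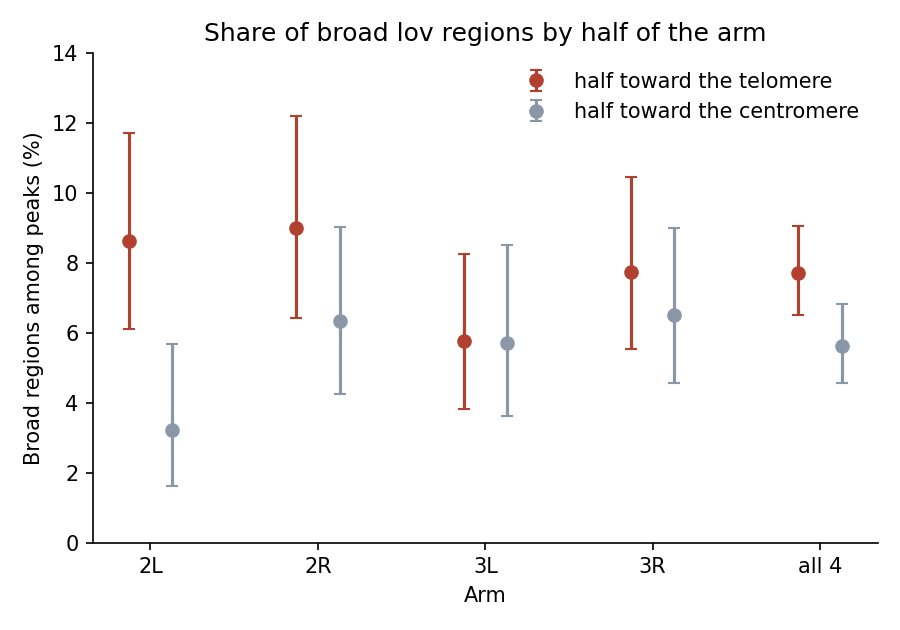
Share of peaks that are broad (%) in the distal 50% (red) and the proximal 50% (grey) of each long arm and of all 4 together, with exact 95% intervals. The intervals on 2L, 8.61% against 3.22%, are apart, and those on 2R, 3L and 3R overlap.

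With each arm cut into 5 equal parts from the telomere inward, the share of peaks that were broad was 7.52%, 7.85% and 7.77% in the first 3 and 5.03% and 5.12% in the last 2, with intervals that overlap. In 97 bins of 1 Mb, the number of broad regions ran from 0 to 7 with a median of 2, and 16 bins had none. The bins with 7 were on 2R, from 11000001 to 12000000 (of 42 peaks) and from 14000001 to 15000000 (of 38 peaks). Across bins, the Spearman correlation between the number of broad regions and of other autosomal peaks was 0.401, a description over bins that share arms and mappable sequence. Long stretches had none at all. The longest ran on 2L from 10201992 to 12460250 (2258.3 kb) and held 46 other peaks, and on 3R one of 2251.1 kb from 14124581 to 16375671 held 55.

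**Figure D5:**
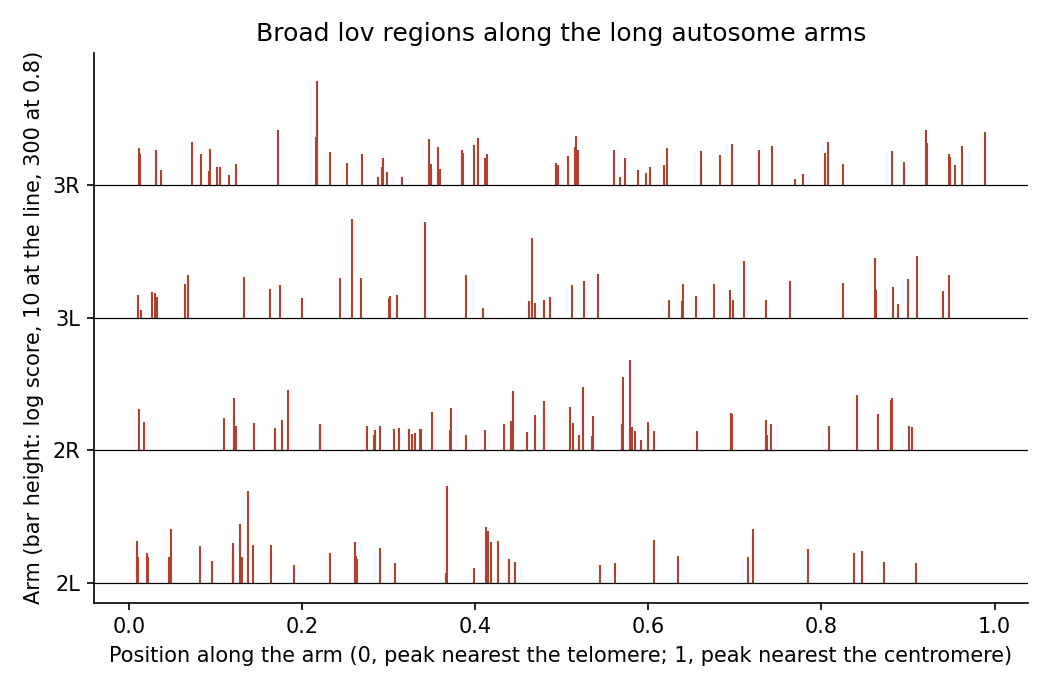
Each line is 1 of the 233 broad regions of the long arms at its position along the arm (0 nearest the telomere, 1 nearest the centromere), with a height that grows with the log of its score. On 2L the lines crowd toward 0, with a median of 0.264, and on 3L the median is 0.469.

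Some scores in the list fall on a ladder of fixed steps. Such steps are what −log10 p-values give when whole pileups are set against 1 shared background. The background was the value that put the most scores of up to 20 on the steps. The shares on the steps and midway between them are therefore not independent of that choice. Of the 234 broad regions, 156 scored above 20 and so lay outside the range used to choose it. Of the broad regions, 9.83% (23 of 234, interval 6.33 to 14.4%) had scores on these steps, against 16.3% of all autosomal peaks and 16.7% of the others, a difference of −6.89 points (−10.3 to −2.23). Scores also differ between the sets, and in the shared range from 12 to 20 the shares were 9.09% (7 of 77) and 14.8% (180 of 1215), with a difference whose interval, −10.8 to 2.99 points, takes in 0. On steps shifted to lie midway, 3.42% and 4.25% matched.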

How the data were processed

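The authors deposited 1 peak list for the series, whose coordinates are FlyBase release 5 and whose source column names MACS, per the file headers. BWA, MACS2, the build BDGP5 and CASAVA (1.7.0.2, 1.7.0.3) stand in the submitters' processing notes. Not given in the sources used here are thresholds, the use of the input and the pooling of replicates. The deposited score has no stated unit. It was read as −log10 of a p-value because repeated scores lie on steps that widen as a Poisson tail does over a background of 35.427 fragments (tolerance 0.0075), as computed from the deposited values. No depth is known. Positions count from 1.

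The rule was a width of 1000 bp or more on the arms 2L, 2R, 3L, 3R and 4. Gaps run between facing edges. Shares have exact Clopper-Pearson 95% intervals, their differences Newcombe intervals, and medians binomial order-statistic intervals, all for counting error only. No test was run, since no library has values of its own and peaks are not replicates. Named regions follow rules on score, width, neighbours, isolation, pairs and nearness to the limit. The regions, lists and limits were chosen with earlier results of these data known. Alternatives were other widths, distances, a stricter score, joined peaks and arms left out. The functions were tested on simulated data. Python 3.11.15, numpy 2.4.6, pandas 2.3.3, scipy 1.17.1 and matplotlib 3.10.9 were used. Promoter overlap was not run, because no release 5 annotation was used here.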

Additional observations from a re-analysis of the deposited data

Results flagged for a closer look

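Outside the autosome arms, 29 peaks of 1000 bp or more lay on X, which the comparisons do not use. They were 5.82% of the 498 X peaks (exact 95% interval 3.93 to 8.26%), an interval that takes in the 6.67% of autosomal peaks. Their widths reached 3128 bp, and their scores ran from 11.92 to 82.61 around a median of 24.28. None of the 160 peaks on unplaced, heterochromatic or mitochondrial sequence was 1000 bp wide or more. This count of 0 allows a share of up to 1.88% if 3 is taken as the highest expected count, which is not an exact interval.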

How the results depend on the processing

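Of 71 recomputed values, 36 stayed within the interval of the main value, or within a factor of 1.5 for counts, 33 moved beyond it and 2 reversed. The reversals concern the share with another peak within 10 kb. The difference of −5.96 points between broad regions and the others became 1.14 points at a width limit of 1.25 kb. At 1.5 kb it was 11.3 points, with an interval of −0.211 to 15.9 that takes in 0. At both limits fewer and wider regions remain by construction. Limits of 0.8, 1.25 and 1.5 kb by construction gave 397, 101 and 44 regions, median score differences of 10.94, 16.17 and 19.29 (main 12.47), and 28.0%, 10.1% and 5.37% of the peak length (main 19.2%). At these limits the shares of broad peaks were 11.3%, 3.03% and 1.32% on 2L, 11.5%, 3.75% and 1.88% on 2R, 10.6%, 2.46% and 0.936% on 3L, and 11.8%, 2.47% and 0.987% on 3R, while chromosome 4 had 0 at the upper 2. With only peaks above the median score the shares were 12.7% on 2L, 14.5% on 2R, 11.8% on 3L and 14.3% on 3R, and the score difference 8.79. Joining peaks within 500 bp gave 538 regions. Broad regions under 1.25 kb exceeded other peaks of 800 bp or more by 1.23 in median score. Broad company within 10, 20 and 100 kb was 11.5%, 19.2% and 53.0% (main 39.3% at 50 kb). Leaving out an arm, added for neighbours and position after the data were seen, turned no direction, but the position difference of −0.0812 shrank to −0.0358 without 2L and, in a setting likewise added, to −0.0683 without the 2L bin with the most peaks. No paired analysis was possible because peaks carry 1 score for all libraries, which also kept replicates from being left out in turn. Weak sites under the caller's threshold cannot be judged.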

Other observations

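Joining autosomal peaks with gaps of up to 500 bp gave 2696 stretches, of which 538 were 1000 bp or longer. Of these, 229 held a broad region and 309 were made of narrower peaks alone. The latter had a median length of 1321 bp, against 1435 bp for the stretches with a broad region, and a median top score of 17.70, with 76.08 as the highest. Of the 229 stretches, 96 held at least 1 further peak.

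The longest joined stretch lay on 2L from 2749291 to 2756135 and put 7 peaks, with a top score of 36.24, into 6845 bp. The second, on 2R from 3374029 to 3379504, put 5 peaks with a top score of 58.63 into 5476 bp. The longest without a broad region lay on 2R from 4535000 to 4538720, with 6 peaks in 3721 bp and a top score of 14.54. In length it exceeds the widest single region, 3679 bp, while its top score is under the lower quartile of the broad regions.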
